A study of Homo sapiens with 39 samples.

Results

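Guides aimed at CUL3, KEAP1 and NFE2L2 were followed through pooled CRISPR knockout screens of melanoma cells that lacked a subunit of the Mediator complex. The 3 genes were chosen from earlier results of these data, in which CUL3 and KEAP1 guides were enriched by vemurafenib in MED23 knockout cells. Their values in that contrast are therefore given as a description, with no test. Guides were found by name, as a member's symbol followed by a guide number. Each gene had 10 of the 12214 guides of an epigenetic library, where the members are 3 of 1115 genes. A whole-genome library held 4 guides for each among its 77441, and there the members are 3 of 19113 genes. All of these guides passed the filter on low counts. A guide number that occurs in both libraries was not taken to mark the same guide.

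CUL3 is the scaffold of a family of ubiquitin ligases that recruit their substrates through adaptors with a BTB domain. KEAP1 is the adaptor that brings NRF2, the transcription factor encoded by NFE2L2, to CUL3, so that NRF2 is ubiquitinated and degraded under resting conditions. Oxidants and electrophiles modify cysteines of KEAP1, NRF2 then accumulates, and genes of glutathione, thioredoxin and NADPH metabolism are switched on. Loss of CUL3 is known from screens of A375 cells as a route to survival in vemurafenib, and CUL3 also serves adaptors other than KEAP1.

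A375 is a melanoma line with an activating BRAF mutation, and vemurafenib inhibits mutant BRAF. MED23 knockout cells with the epigenetic library were collected after 14 days in 1 µM vemurafenib, after 14 days in DMSO, and at day 0. MED12 knockout cells with the epigenetic library, and MED12 knockout cells with the whole-genome library, were collected at day 0, at day 8 in 2 µM vemurafenib or DMSO, and at day 14 in 2 µM vemurafenib or DMSO. Every group held 3 libraries, and every group carried a Mediator knockout, so cells with intact MED12 and MED23 were not analysed here. Whether a knockout line was 1 clone, and whether libraries of a group came from separate cultures, is not given in the sources used here. The p-values therefore measure only the spread between these libraries, which in the MED23 screen may be technical. In both MED12 screens, libraries of 1 number deviated together across days and treatments, with r of at least 0.329 and 0.46. Libraries of different numbers had r of at most -0.147 and -0.208. Deviations were taken from the mean of each group, so these negative values follow from the positive ones and are not separate evidence. Because the drug dose and the screen differ along with the knockout, these cannot be told apart in any comparison of vemurafenib between MED12 and MED23 knockout cells, and none was tested.

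Libraries held 22846325 to 28994690 reads in the MED23 screen, 16385695 to 20814734 reads in the MED12 epigenetic screen and 47766947 to 87591804 reads in the whole-genome screen. A level is given in CPM, a per-million share of the reads of its library, scaled between libraries by the trimmed mean of M values and summed over the guides of a gene, with its SD over 3 libraries. A change is either the median log2 fold change of a gene's guides or the change in its gene score with the standard error, the score being the average log2 CPM of its guides. The standard error takes the groups as independent, also where same-numbered libraries deviated together. Guide tests by edgeR were combined per gene by robust rank aggregation, and the adjusted p over all genes is written edgeR/RRA adjusted p, with a threshold of 0.05. Scaling on control guides in place of all guides moved the median of all genes in the comparison of DMSO at day 14 with day 0 to -0.97 in MED23 knockout cells, against 0.06 with the main scaling. For MED12 knockout cells the same medians were -0.26 against 0.16 with the epigenetic library, and -0.37 against 0.30 with the other library. Changes against day 0 are therefore also given relative to the median of all genes.

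CUL3 guides filled a large part of the MED23 knockout cultures under vemurafenib. They held 15.95%, 24.01% and 26.41% of all reads in the 3 vemurafenib libraries, against 0.189%, 0.167% and 0.205% in the DMSO libraries and 0.103%, 0.0831% and 0.0860% at day 0. Counting error is small beside these differences, with an exact 95% binomial interval of 15.94% to 15.97% for the lowest vemurafenib library. Summed CUL3 guides averaged 386857 ± 137455 CPM in vemurafenib and 1504 ± 156 CPM in DMSO (SD, n = 3 each), a ratio of 257. The factors that scale CPM were 0.51 to 0.70 in the vemurafenib libraries and 1.24 to 1.25 in the DMSO libraries. This ratio is therefore larger than that of the read shares. The gene score was higher by 6.79 ± 0.24 than in DMSO and by 7.87 ± 0.27 than at day 0, and by median guide change CUL3 ranked 1 of 1115 genes in both comparisons.

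The CUL3 guides were not alike within that group. CUL3_10, the most abundant guide of the whole library, reached 94580, 188300 and 267400 CPM in vemurafenib, against 249, 162 and 445 CPM in DMSO. Over the 10 guides the log2 fold change had a median of 7.48, a maximum of 9.33 for CUL3_10 and a minimum of 0.42 for CUL3_2. CUL3_2 stood apart from the rest, with 112, 53.5 and 76.7 CPM in vemurafenib, against 44.2, 67.4 and 69.3 CPM in DMSO, and its groups overlapped. For the other 9 guides, from CUL3_7 with 6.32 upwards, all vemurafenib libraries lay above all DMSO libraries, a separation that 16.2% of the guides of all genes showed. CUL3 guides took 6 of the 10 highest places by mean CPM in vemurafenib, and 8 of the 20 highest.

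KEAP1 guides were also more abundant in vemurafenib in MED23 knockout cells, at a much lower level than CUL3 guides. They summed to 3418, 4377 and 7487 CPM in vemurafenib, against 598, 578 and 610 CPM in DMSO and 830, 769 and 812 CPM at day 0, and the vemurafenib libraries lay above all others. The ratio of means was 8.56 to DMSO and 6.34 to day 0, and the gene score was higher by 2.86 ± 0.14 and by 1.99 ± 0.13. By median guide change KEAP1 ranked 8 of 1115 genes against DMSO and 9 against day 0. The library with 7487 CPM was led by a single guide: KEAP1_9 stood at 3701 CPM there, 49.4% of the KEAP1 reads, against 274 and 705 CPM in the other vemurafenib libraries.

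The KEAP1 guides fell into 3 patterns. KEAP1_4 and KEAP1_5 changed little against DMSO, with log2 fold changes of 0.26 and 0.43 and overlapping groups. KEAP1_2 and KEAP1_6 had lost abundance in DMSO: KEAP1_2 stood at 74.6, 91.7 and 55.7 CPM in vemurafenib, against 2.85, 3.76 and 3.02 CPM in DMSO and 63.8, 64.5 and 64.2 CPM at day 0. Its log2 fold change was thus 4.52 against DMSO, the highest of the 10, and 0.21 against day 0. KEAP1_6 likewise stood at 191, 129 and 122 CPM in vemurafenib, against 4.53, 21.4 and 19.9 CPM in DMSO and 75.9, 61.4 and 66.9 CPM at day 0. The other 6 guides had log2 fold changes between 2.80 and 4.36 against DMSO and between 2.34 and 4.30 against day 0. In all, 8 of 10 KEAP1 guides had every vemurafenib library above every DMSO library, where 16.2% of the guides of all genes did.

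Guides against NFE2L2, the gene for the factor that the CUL3 and KEAP1 ligase degrades, did not share these gains. Their summed level was 877, 741 and 764 CPM in vemurafenib, against 914, 883 and 1000 CPM in DMSO and 619, 606 and 636 CPM at day 0. The vemurafenib libraries lay below the DMSO libraries and above day 0. As a share of all reads, of which CUL3 guides took a large part, NFE2L2 guides held 0.0614%, 0.0381% and 0.0433% in vemurafenib, against 0.114%, 0.110% and 0.124% in DMSO. The median log2 fold change to DMSO was -0.23, with 2 of 10 guides above 0, a maximum of 0.52 for NFE2L2_3 and a minimum of -1.02 for NFE2L2_5. NFE2L2_5 had 54.4, 35.7 and 36.7 CPM in vemurafenib, against 116, 58.2 and 84.0 CPM in DMSO. By median guide change NFE2L2 ranked 998 of 1115 genes against DMSO, and the median of all genes was 0.09. Against day 0 its median guide change was 0.36, place 248 of 1115. In this contrast 116 of 1115 genes (10.4%) passed the threshold. Against day 0 182 genes (16.3%) passed, of which 67 were higher and 115 lower, and with control-guide scaling 52 were higher and 46 lower. These are counts from which nothing is read for the members, since the contrast chose them.

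**Figure D1:**
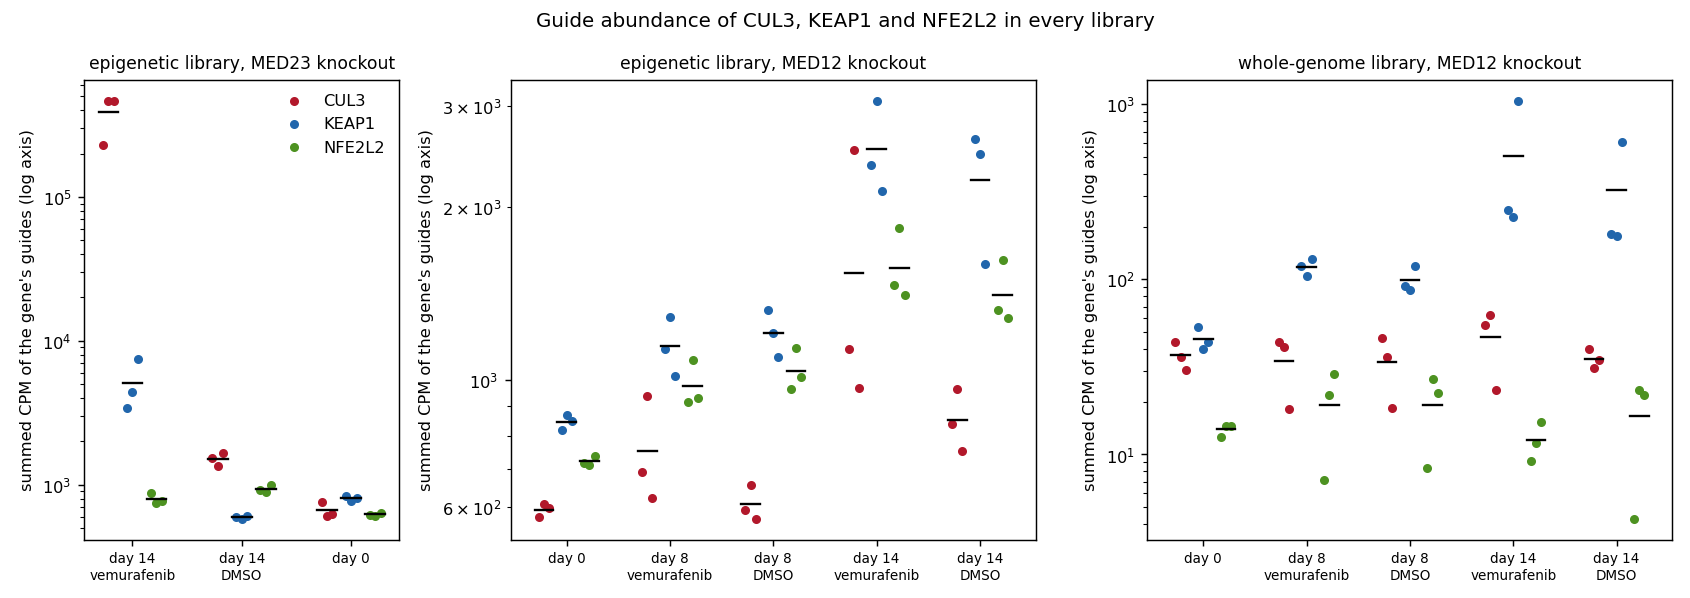
Summed CPM of the guides of CUL3, KEAP1 and NFE2L2 (log axis, its range differs between panels) in each of 3 libraries per group, with black bars at the group mean. In MED23 knockout cells CUL3 stood between 228100 and 467100 CPM in vemurafenib and KEAP1 between 3418 and 7487 CPM, above all DMSO and day 0 libraries, while NFE2L2 stayed between 741 and 877 CPM.

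In MED12 knockout cells with the same library, the change with vemurafenib passed the test for none of the 3 genes at day 8 or day 14. CUL3 guides summed to 690, 939 and 623 CPM at day 8 in vemurafenib, against 592, 655 and 573 CPM in DMSO. At day 14 they summed to 1131, 2520 and 967 CPM in vemurafenib, against 837, 964 and 752 CPM in DMSO. The lowest day-14 vemurafenib library thus lay just above the highest DMSO library, the gene scores overlapped, and replicate 2 stood far above the other vemurafenib libraries. By replicate, the day-14 scores were 6.53, 6.32 and 5.95 in vemurafenib, against 5.98, 5.49 and 5.81 in DMSO. At both days CUL3 was higher in vemurafenib than in the same-numbered DMSO library, by summed level and by gene score. At day 8 the summed levels overlapped and the gene scores did not. The change passed in no alternative at either day, the replicate block included. The median guide change of CUL3 was 0.26 at day 8 (edgeR/RRA adjusted p = 0.141) and 0.74 at day 14 (edgeR/RRA adjusted p = 0.385), and its gene score changed by 0.21 ± 0.09 and by 0.51 ± 0.22. Without replicate 2 of the vemurafenib libraries the median was 0.12 at day 8 and 0.36 at day 14, and without replicate 3 of the day-8 DMSO libraries it was 0.48. Of 1115 genes 19 (1.7%) passed at day 8, or 33 with the replicate number as a block, and 16 (1.43%) at day 14.

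Single CUL3 guides stood high in single replicates at day 14. CUL3_6 had 87.8, 818 and 298 CPM in vemurafenib, against 42.0, 152 and 165 CPM in DMSO, and CUL3_1 had 243, 716 and 246 CPM in vemurafenib, against 268, 341 and 152 CPM in DMSO. CUL3_10, the leading guide of the MED23 screen, had 132, 59.6 and 25.7 CPM in vemurafenib, against 38.7, 8.00 and 13.1 CPM in DMSO, the largest guide change (1.86), and the lowest was -0.37 for CUL3_7. No guide of CUL3, KEAP1 or NFE2L2 had all vemurafenib libraries above all DMSO libraries at day 14, where 2.03% of the guides of all genes did. With so few guides, a count of none is near that share. Over the 10 CUL3 guides, the changes in MED12 and MED23 knockout cells had a Pearson r of 0.50 and a Spearman rho of 0.50, given as a description of guides that share a target. The same values over 10 guides each were -0.10 and -0.15 for KEAP1, and -0.71 and -0.59 for NFE2L2.

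KEAP1 and NFE2L2 guides overlapped between drug and DMSO in MED12 knockout cells. KEAP1 stood at 2371, 3070 and 2139 CPM at day 14 in vemurafenib, against 2627, 2474 and 1592 CPM in DMSO, and the groups overlapped. Its median guide change was -0.08 at day 8 and 0.18 at day 14 (edgeR/RRA adjusted p = 1.0 at both days). NFE2L2 stood at 1462, 1843 and 1406 CPM at day 14 in vemurafenib, against 1327, 1616 and 1282 CPM in DMSO, again with overlap. Its median guide change was -0.13 at day 8 and 0.14 at day 14 (edgeR/RRA adjusted p = 1.0 at both days). The sign for NFE2L2 at day 14 turned with the gene score, which changed by -0.02 ± 0.28. Set side by side at their different doses, the gene score changes in vemurafenib at day 14 were 0.51 in MED12 and 6.79 in MED23 knockout cells for CUL3. They were 0.03 in MED12 and 2.86 in MED23 knockout cells for KEAP1, and -0.02 in MED12 and -0.19 in MED23 knockout cells for NFE2L2.

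The difference between the day-14 and day-8 vemurafenib effects in MED12 knockout cells did not pass for CUL3 (median 0.46, edgeR/RRA adjusted p = 0.884), KEAP1 (median 0.29, edgeR/RRA adjusted p = 0.896) or NFE2L2 (median 0.24, edgeR/RRA adjusted p = 1.0), and 6 of 1115 genes (0.538%) passed, or 12 with the replicate block. The CUL3 median was -0.03 without replicate 2 of the day-14 vemurafenib libraries.

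**Figure D2:**
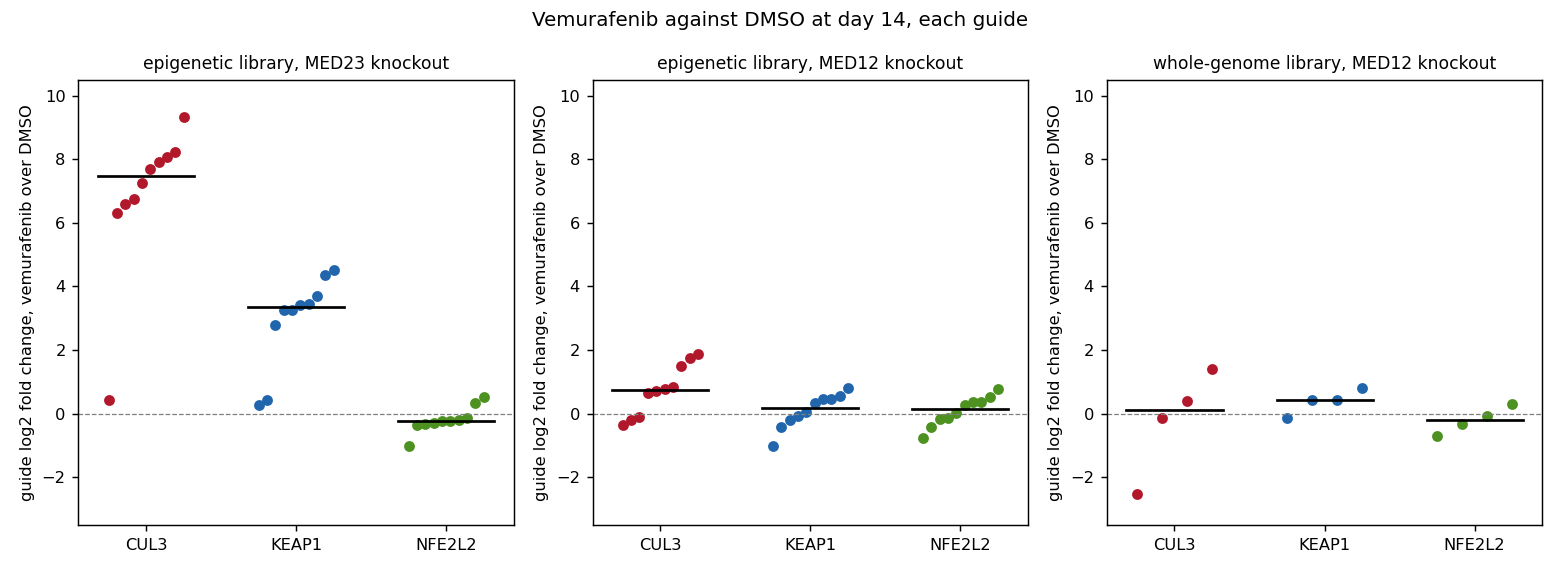
Log2 fold change of each guide, vemurafenib over DMSO at day 14, for the 3 genes in the 3 screens, with black bars at the median. In MED23 knockout cells 9 CUL3 guides lie between 6.32 and 9.33 and CUL3_2 at 0.42, while in MED12 knockout cells with the epigenetic library CUL3 guides lie between -0.37 and 1.86.

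With the whole-genome library, MED12 knockout cells gave lower summed levels for the members, each of which had 4 guides. CUL3 stood at 55.2, 62.6 and 23.4 CPM at day 14 in vemurafenib, against 40.0, 31.0 and 34.6 CPM in DMSO, and its groups overlapped at both days. KEAP1 stood at 249, 228 and 1051 CPM at day 14 in vemurafenib, against 183, 178 and 609 CPM in DMSO. NFE2L2 stood at 9.15, 11.6 and 15.4 CPM at day 14 in vemurafenib, against 4.29, 23.5 and 21.8 CPM in DMSO. The groups of all 3 genes overlapped, and replicate 3 was the high library of KEAP1 with and without the drug.

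No member passed for vemurafenib in this library (edgeR/RRA adjusted p = 1.0 for each at both days), and the standard errors were wide. The gene score changed at day 14 by 0.21 ± 0.64 for CUL3, 0.03 ± 0.45 for KEAP1 and -0.29 ± 0.61 for NFE2L2. These errors take the groups as independent, although same-numbered libraries deviated together. By replicate, CUL3 scores were 3.10, 2.23 and 1.45 in vemurafenib, against 2.72, 2.17 and 1.27 in DMSO. They were 5.34, 4.88 and 4.09 against 5.04, 4.97 and 4.21 for KEAP1. For NFE2L2 they were 0.12, 0.83 and 1.57 against 0.28, 1.34 and 1.78. By gene score CUL3 was thus higher and NFE2L2 lower with the drug in each replicate, and no call changed with the replicate block. The summed levels did not keep these directions. Summed CUL3 guides were lower with the drug in replicate 3, at 23.4 against 34.6 CPM. Summed NFE2L2 guides were higher with the drug in replicate 1, at 9.15 against 4.29 CPM. Of 19101 genes tested, 5 (0.0262%) passed at day 8 and 0 (0.0%) at day 14, where 1004 had an unadjusted p under 0.05 and DESeq2 and limma also called 0. For the difference between days 0 (0.0%) passed as well, with 1021 genes at an unadjusted p under 0.05, and the members had medians of 0.13 for CUL3, 0.16 for KEAP1 and -0.31 for NFE2L2 (edgeR/RRA adjusted p = 1.0 for each).

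The KEAP1 pool of the whole-genome screen was led by different guides in different replicates, and by the same guide with and without the drug. In replicate 3, KEAP1_3 held 76.6% of the KEAP1 reads at day 8 in vemurafenib and 76.9% in DMSO, and at day 14 it held 97.6% in vemurafenib and 92.3% in DMSO. Its 34707 reads in the day-14 vemurafenib library compare with 2250 reads at day 0 in the same-numbered library. In replicate 2, KEAP1_2 led instead, with 76.5% at day 14 in vemurafenib and 51.5% in DMSO. In replicate 1, KEAP1_1 led at day 8 with 46.7% in vemurafenib and 46.7% in DMSO, and KEAP1_3 led at day 14 with 46.2% in vemurafenib and 53.3% in DMSO. Some guides were nearly lost at the same time, as KEAP1_1 in replicate 3 with 0 reads at day 14 in vemurafenib and 39 reads in DMSO. NFE2L2_3 had 1, 2 and 0 reads at day 14 in vemurafenib and 0, 4 and 0 reads in DMSO, against 284, 325 and 83 reads at day 0. Libraries all below day 0 were also seen for 19.3% of the guides of all genes in vemurafenib and 16.3% in DMSO. Such a loss of a single guide is thus not particular to NFE2L2.

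**Figure D3:**
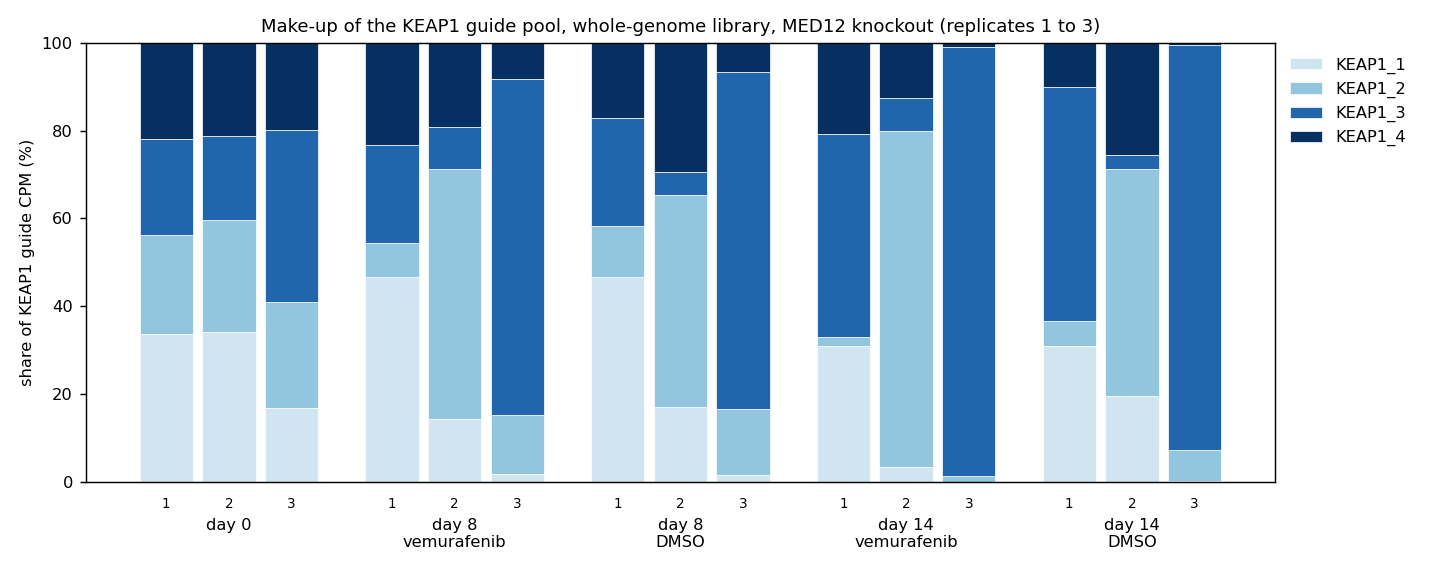
Share of the summed KEAP1 guide CPM (percent) held by each of its 4 guides in the 15 libraries of the whole-genome screen, with replicates 1 to 3 side by side in each group. KEAP1_3 held 97.6% in vemurafenib and 92.3% in DMSO at day 14 in replicate 3, while KEAP1_2 led in replicate 2 with and without the drug.

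Growth without drug, DMSO at day 14 against day 0, asks which guides gained or lost in Mediator knockout cells left untreated. In MED12 knockout cells with the epigenetic library, KEAP1 guides rose. They summed to 2627, 2474 and 1592 CPM at day 14 in DMSO, against 818, 869 and 847 CPM at day 0, and day 8 in DMSO lay between, at 1325, 1206 and 1099 CPM. The ratio of means was 2.64, the median guide change was 1.25 and the gene score rose by 1.04 ± 0.14 (edgeR/RRA adjusted p = 0.00525). Relative to the median of all genes the guide change was 1.10. Of 1115 genes 58 (5.2%) passed, and 96 with the replicate block. Without replicate 1 of the day-14 DMSO libraries the KEAP1 median was 0.96 and the call was lost (edgeR/RRA adjusted p = 0.0667), and over all alternatives the adjusted p ran between 2.58e-05 and 0.0667.

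KEAP1 guides rose broadly there. Of the 10, 8 had every day-14 library above every day-0 library, where 12.1% of the guides of all genes did, and the same held for 2 CUL3 and 4 NFE2L2 guides. KEAP1_10 gained most, with 451, 750 and 301 CPM at day 14, against 50.4, 57.3 and 55.2 CPM at day 0 (log2 fold change 3.20). The other pair, KEAP1_2 at -0.43 and KEAP1_5 at -0.20, overlapped between days.

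CUL3 and NFE2L2 did not pass with edgeR/RRA for growth in MED12 knockout cells. CUL3 stood at 837, 964 and 752 CPM at day 14 in DMSO, against 577, 608 and 598 CPM at day 0, with a median guide change of 0.28 (edgeR/RRA adjusted p = 0.977). NFE2L2 stood at 1327, 1616 and 1282 CPM, against 718, 710 and 736 CPM at day 0, with a median guide change of 0.76 (edgeR/RRA adjusted p = 0.166) and a gene score change of 0.51 ± 0.19. With limma on gene scores NFE2L2 passed (adjusted p = 0.0414), in a test that called 388 genes (34.8%), and over all alternatives its adjusted p ran up to 0.697. The groups of summed CPM did not overlap for either gene. Relative to the median of all genes the guide changes were 0.12 for CUL3 and 0.61 for NFE2L2.

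The same cells in vemurafenib at day 14 were also set against day 0, with the same day-0 libraries as for DMSO. KEAP1 stood at 2371, 3070 and 2139 CPM in vemurafenib, against 818, 869 and 847 CPM at day 0, with a median guide change of 1.13 that missed the threshold (edgeR/RRA adjusted p = 0.0874). The median was 0.78 for CUL3 (edgeR/RRA adjusted p = 0.680) and 0.89 for NFE2L2 (edgeR/RRA adjusted p = 0.158), and 36 of 1115 genes (3.23%) passed. With limma on gene scores all 3 passed, at adjusted p = 0.00941 for CUL3, 1.8e-05 for KEAP1 and 0.0482 for NFE2L2, in a test that called 402 genes (36.1%). These were the lowest adjusted p over the alternatives, and the highest were 0.961 for CUL3, 0.235 for KEAP1 and 0.586 for NFE2L2.

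In the whole-genome library KEAP1 also stood higher after growth, at 183, 178 and 609 CPM in DMSO at day 14, against 53.5, 39.9 and 44.2 CPM at day 0. The summed levels did not overlap and all 4 guides changed by more than 0. Of the 4, 0 had every DMSO library above every day-0 library, where 7.21% of the guides of all genes did. With 4 guides, a count of 0 is near that share. The median guide change was 1.69 and the gene score changed by 1.21 ± 0.29, but the test did not pass (edgeR/RRA adjusted p = 0.761). Against day 0 in vemurafenib the KEAP1 median was 2.11 (edgeR/RRA adjusted p = 0.746). CUL3 had a median of -0.73 for growth and -0.14 in vemurafenib against day 0 (edgeR/RRA adjusted p = 1.0 for both), and its growth median was -0.10 without replicate 3 of the day-14 DMSO libraries and -0.45 without replicate 1 of the day-0 libraries. NFE2L2 had a median of -0.09 for growth (edgeR/RRA adjusted p = 0.939) and -0.29 in vemurafenib against day 0 (edgeR/RRA adjusted p = 1.0). Of 19101 genes 29 (0.152%) passed for growth and 10 (0.0524%) in vemurafenib against day 0.

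MED23 knockout cells grown without drug showed another order of the 3 genes. This comparison uses the same DMSO libraries as the vemurafenib contrast that chose the members. A low DMSO level of KEAP1 adds both to the gain that chose it and to a loss in growth, so its values here are a description, with no test. CUL3 stood high in the same libraries, which lowers the gain that chose it. KEAP1 stood at 598, 578 and 610 CPM at day 14 in DMSO, against 830, 769 and 812 CPM at day 0, so every DMSO library lay below day 0. CUL3 stood at 1520, 1341 and 1653 CPM, against 756, 608 and 629 CPM at day 0, and NFE2L2 at 914, 883 and 1000 CPM, against 619, 606 and 636 CPM at day 0. For both of these every DMSO library lay above day 0.

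NFE2L2 rose in that comparison, with a median guide change of 0.67 (edgeR/RRA adjusted p = 0.0188) and a gene score change of 0.40 ± 0.06. Relative to the median of all genes its change was 0.61, while with scaling on control guides its own median was -0.36 and it did not pass (edgeR/RRA adjusted p = 0.392). Of 1115 genes 199 (17.8%) passed, 59 higher and 140 lower, against 46 higher and 57 lower with control-guide scaling. Without NFE2L2_7, its most abundant guide over the screen, the median was 0.62 and the edgeR/RRA adjusted p was 0.0531, and over all alternatives it ran between 0.00176 and 0.392. NFE2L2_7 had 221, 220 and 161 CPM in DMSO, against 113, 98.0 and 93.3 CPM at day 0 (log2 fold change 0.98), and 6 of the 10 guides had every DMSO library above day 0, where 23.0% of the guides of all genes did. The exceptions included NFE2L2_3 at -0.65 and NFE2L2_10 at -0.61, whose DMSO libraries all lay below day 0.

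All 10 CUL3 guides were above 0 for growth in MED23 knockout cells, between 0.38 for CUL3_5 and 1.88 for CUL3_10, with a median of 1.17 and a gene score change of 1.08 ± 0.11. Every DMSO library lay above every day-0 library for 7 of them, where 23.0% of the guides of all genes did. The edgeR/RRA test on all 9 libraries gave an adjusted p of 1.0, and the same test on the 6 libraries of the groups compared, without the vemurafenib libraries, gave 0.000365. Among the alternatives run, the gain passed only without those libraries, with control-guide scaling (edgeR/RRA adjusted p = 1.73e-05, median 0.14) or with limma on gene scores (adjusted p = 0.000684).

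The lower KEAP1 level after growth in MED23 knockout cells amounted to a median guide change of -0.39 and a gene score change of -0.87 ± 0.05. The guides were uneven. KEAP1_2 changed by -4.32 and KEAP1_6 by -2.16 on the log2 scale, while the other 8 guides lay between -0.57 and 0.57. The DMSO libraries of 4 KEAP1 guides lay all below day 0, where 34.6% of the guides of all genes did, and those of KEAP1_4 lay all above it.

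The differences in growth effect between MED12 and MED23 knockout cells had opposite signs for KEAP1 and CUL3. For KEAP1 the difference, MED12 minus MED23, had a median guide change of 1.503 and a gene score difference of 1.79 ± 0.14, given as a description because the MED23 DMSO libraries in it helped to choose KEAP1. It was above 0 for 9 of 10 guides, largest at 3.76 for KEAP1_2, the guide that was lowest in those DMSO libraries, while KEAP1_4 stood at -0.02 and KEAP1_5 at 0.02. For CUL3 the difference had a median of -0.87 and a gene score difference of -1.13 ± 0.18 (edgeR/RRA adjusted p = 0.0145). It was below 0 for 9 of 10 guides, the exception being CUL3_1 at 0.22, and lowest for CUL3_10 at -2.92. The CUL3 call was lost without any one of the day-14 DMSO libraries of MED12 knockout cells, without replicate 3 of the MED23 day-0 libraries and without replicate 2 of the MED23 day-14 DMSO libraries, with edgeR/RRA adjusted p between 0.0597 and 0.139, while over all alternatives it ran between 0.000314 and 0.139.

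NFE2L2 did not pass (median 0.20, edgeR/RRA adjusted p = 1.0, gene score difference -0.02 ± 0.20), and the sign depended on the measure. Of 1115 genes 46 (4.13%) passed in this comparison. Both knockouts were screened separately, so knockout and screen cannot be told apart here. Relative to the median of all genes the differences were 1.38 for KEAP1, -0.995 for CUL3 and 0.08 for NFE2L2, and with control-guide scaling, which moved that median to 0.85 against 0.12, they were 1.38 for KEAP1, -0.996 for CUL3 and 0.06 for NFE2L2.

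**Figure D4:**
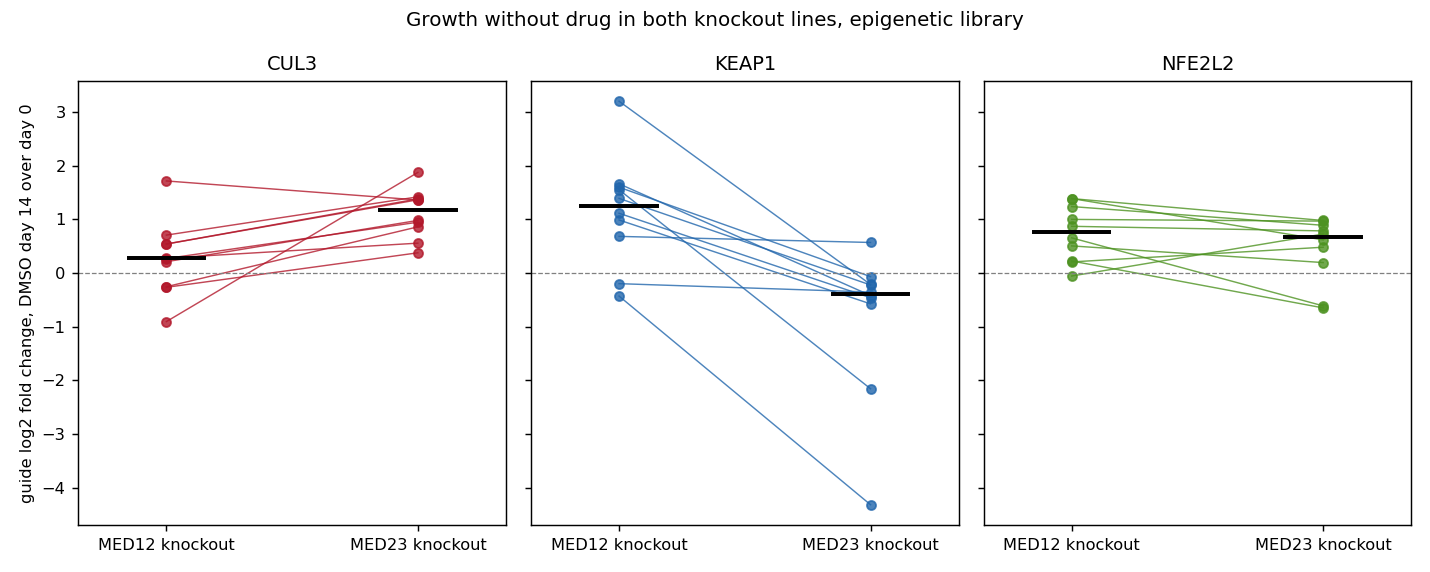
Log2 fold change of each guide in the epigenetic library, DMSO at day 14 over day 0, in MED12 and MED23 knockout cells, with a line joining the values of 1 guide and black bars at the median. KEAP1 medians were 1.25 in MED12 and -0.39 in MED23 knockout cells, CUL3 medians 0.28 and 1.17, and NFE2L2 medians 0.76 and 0.67.

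Other genes of the pathway were described from 6 lists of 109 genes, chosen with earlier results of these data known. The lists held factors that degrade NRF2 or compete for KEAP1, partners and relatives of NRF2, NRF2 target genes, the enzymes of cullin neddylation with the COP9 signalosome, other BTB adaptors of CUL3, and other cullin scaffolds. Of these genes 13 had guides in the epigenetic library, and all 109 had guides in the larger one. In MED12 knockout cells none of the 13 passed with edgeR/RRA for vemurafenib at day 8 or day 14, for vemurafenib against day 0, or for growth. At an unadjusted p under 0.05 there were 2, 0, 1 and 1 of them, where 9.6%, 7.17%, 13.6% and 16.2% of all genes were. Limma on gene scores called 0, 0, 3 and 3 of them, where it called 0.0897%, 1.79%, 36.1% and 34.8% of all genes. The lowest p for growth belonged to CUL2, the scaffold of the ligase that uses VHL (median -0.97, edgeR/RRA adjusted p = 0.0613).

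In MED23 knockout cells the other cullins moved apart from each other. The lists were chosen with earlier results of these data known. The adjusted p of list genes in MED23 knockout cells, here and below, are therefore a description and not independent tests. CUL5, the scaffold that works with SOCS-box adaptors, rose with vemurafenib to 1845, 3655 and 1241 CPM, against 632, 641 and 544 CPM in DMSO and 312, 316 and 336 CPM at day 0. Its median guide change was 1.61 against DMSO (edgeR/RRA adjusted p = 0.000854) and 2.41 against day 0 (edgeR/RRA adjusted p = 6.01e-09). CUL2 stood at 1163, 542 and 581 CPM in vemurafenib, against 208, 283 and 218 CPM in DMSO and 687, 683 and 663 CPM at day 0. It thus rose against DMSO (median 1.71, edgeR/RRA adjusted p = 0.000994) and fell in DMSO against day 0 (median -1.61, edgeR/RRA adjusted p = 0.0135), as KEAP1_2 and KEAP1_6 were also lowest in DMSO. CUL4B stood lower with vemurafenib than in DMSO (median -0.38, edgeR/RRA adjusted p = 0.0458), with a gene score change of -0.21 ± 0.20. It had 540.5, 588.0 and 578.7 CPM in vemurafenib, against 757.8, 731.8 and 700.9 CPM in DMSO. All of these lay above day 0, at 459.9, 402.5 and 445.3 CPM. Of the 5 other scaffolds measured, 2 rose and 1 fell against DMSO, where 10.4% of all genes passed (85 rose and 31 fell), with a median of 0.58 beside 0.09 for all genes. Against day 0 CUL1, the scaffold of SCF ligases, fell in vemurafenib (median -0.92, edgeR/RRA adjusted p = 0.0335). Its median in DMSO against day 0 was lower still, at -1.39, and did not pass (edgeR/RRA adjusted p = 0.162). CUL1 stood at 476, 615 and 305 CPM in vemurafenib, above 250, 239 and 212 CPM in DMSO, against 569, 595 and 550 CPM at day 0.

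For growth in MED23 knockout cells, CUL5 (median 0.95, edgeR/RRA adjusted p = 0.00207) and CUL4B (median 0.82, edgeR/RRA adjusted p = 0.0329) rose and CUL2 fell, with a list median of 0.33 beside 0.06 for all genes. SPOP, the 1 gene of the list of other BTB adaptors that had guides in the epigenetic library, rose for growth to 1030, 1054 and 1071 CPM in DMSO, against 736, 735 and 732 CPM at day 0 (median 0.49, edgeR/RRA adjusted p = 0.0142). These gains are relative to a median of all genes that stood at -0.97 with control-guide scaling. SPOP also rose in vemurafenib against day 0 (median 0.97, edgeR/RRA adjusted p = 0.00088), and did not pass against DMSO (median 0.20).

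Of the NRF2 partners, CREBBP, a coactivator, stood higher with vemurafenib than in DMSO in MED23 knockout cells (median 2.06, edgeR/RRA adjusted p = 0.00206). It had 483, 546 and 1139 CPM in vemurafenib, against 217, 246 and 365 CPM in DMSO and 514, 499 and 545 CPM at day 0. In vemurafenib against day 0 CREBBP did not pass (median 0.27, gene score change -0.03 ± 0.18). Its median for growth was -1.82 (edgeR/RRA adjusted p = 0.0573). It was 1 of 2 partners measured. None of the 4 genes measured that degrade NRF2 or compete for KEAP1 passed in MED23 knockout cells: BTRC and FBXW11, substrate receptors of another cullin ligase for NRF2, SQSTM1, the autophagy receptor that binds KEAP1, and AMER1. Of all genes 10.4% passed against DMSO, 16.3% in vemurafenib against day 0 and 17.8% for growth. With 4 genes, the count is near these shares. Their medians against DMSO lay between -0.32 for SQSTM1 and 0.53 for FBXW11. IDH1, the NRF2 target gene in this library, had a median of 0.02.

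With the whole-genome library, 1 of the 109 list genes passed in any comparison. Of all genes 0.152% passed for growth and fewer in every other comparison, so 0 called genes in a list is near that share. UBE2F, a conjugating enzyme that attaches NEDD8 to cullins, rose in growth (median 2.29, edgeR/RRA adjusted p = 0.0184, gene score change 1.74 ± 0.43). Its call was lost without replicate 1 or replicate 3 of the day-14 DMSO libraries, with control-guide scaling, and in a fit of the compared groups alone. The 26 NRF2 target genes had a median of -0.29 for growth beside 0.30 for all genes, with 10 above 0, and 0 passed. The lowest p among them was that of TXNRD1, a thioredoxin reductase (median -2.28, edgeR/RRA adjusted p = 0.304). The 33 other BTB adaptors had a median of 0.49 for growth with 26 above 0, and 0 passed. For vemurafenib at day 14 the medians were -0.01 for the target genes and -0.21 for the adaptors, beside 0.06 for all genes. Across this library 12 list genes had an unadjusted p under 0.05 for growth and 4 for vemurafenib at day 14, where 7.67% and 5.26% of all genes did.

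Genes with the most similar pattern were found by the Pearson correlation of gene scores, each taken relative to its screen at day 0. Libraries of a group share a condition, and in MED12 knockout cells same-numbered libraries also deviate together, so r is a description. The CUL3 score averaged 13.77 in vemurafenib in MED23 knockout cells, and in no other group of the epigenetic library above 6.98. Its r there thus follows mainly the contrast that chose CUL3 and KEAP1, and a near gene is not separate support. Over the 24 epigenetic libraries the nearest to CUL3 were SIAH1 (r = 0.92), CUL5 (r = 0.91), MED12 (r = 0.89), NF2 (r = 0.89) and NF1 (r = 0.88). KEAP1 came 48th for CUL3, with r = 0.64. The nearest to KEAP1 were TADA2B (r = 0.90), CDK8 (r = 0.89), TADA1 (r = 0.86), ATXN7 (r = 0.86) and TAF6L (r = 0.84), with CUL3 in place 30. For NFE2L2 they included PRDM6 (r = 0.85), NUAK2 (r = 0.81), SETD4 (r = 0.80) and DYRK1A (r = 0.76), and r was -0.04 with CUL3 and 0.18 with KEAP1.

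Over the 15 whole-genome libraries the nearest genes had r between 0.94 and 0.97, led by PLSCR2 for CUL3, ARIH2 for KEAP1 and PALM2 for NFE2L2. The members themselves were far apart there, with r = 0.15 between CUL3 and KEAP1, -0.44 between CUL3 and NFE2L2, and -0.79 between KEAP1 and NFE2L2.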

How the data were processed

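The deposited files hold raw read counts per guide, which the authors made with bcl2fastq, HISAT2 and HTSeq per the submitters' processing notes, whose versions and roles the sources used here do not give. Every column of the 3 count tables matched a labelled sample, with 0 columns left over, and no library repeated another within sampling noise. Members and pathway lists were chosen with earlier results of these data known. Counts were filtered (filterByExpr, minimum count 10, minimum total 15), scaled by TMM and tested per guide with the quasi-likelihood test of edgeR 4.0.16 in R 4.3.3, on all libraries of a table. For the growth difference between knockouts, the day-0 and day-14 DMSO libraries of both epigenetic tables entered 1 fit. Guide ranks were combined per gene by robust rank aggregation (alpha 0.25, at least 3 guides) and the gene p-values adjusted by Benjamini-Hochberg across the whole table, with a threshold of 0.05. Gene scores used log2 of CPM plus 0.5. The procedure was tested on simulated data. Alternatives were DESeq2 1.42.0, limma 3.58.1 on gene scores, control-guide scaling, no filter, a replicate block, only the compared groups, each library left out and the leading guide left out.

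Named genes were the members, per list up to 5 past the threshold or the 2 with the lowest p, and the 5 genes nearest in pattern, of which 1 is not reported here. Same-numbered libraries of different groups deviated together in both MED12 screens (r of 0.329 to 0.9 over 30 pairs of libraries, and 0.46 to 0.92). The numbers were therefore taken as a block in an alternative fit. The main tests and the standard errors used no block. In the MED23 screen r was -0.169 to 0.328, and the numbers were not taken as pairs. Reads carry no molecular identifiers, so binomial intervals (Clopper-Pearson, 95%) cover counting error only. Guide sequences were not used here.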

Additional observations from a re-analysis of the deposited data

Results flagged for a closer look

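The growth effect, DMSO at day 14 over day 0, was compared between MED12 and MED23 knockout cells. For KEAP1 the median guide change, MED12 minus MED23, was 1.503, and 9 of 10 guides were above 0. No test is given for KEAP1, because it was chosen by its gain over the same MED23 DMSO libraries, and a low level there raises both values. For CUL3, which stood high in those libraries, the difference passed the test and was -0.8734 (edgeR/RRA adjusted p = 0.0145, and between 0.000314 and 0.139 over the alternatives), and 9 of 10 guides were below 0. Knockout and screen cannot be told apart in either. Groups of 3 libraries were too small for a search for outlying libraries.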

How the results depend on the processing

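Member effects gave 567 comparisons with an alternative over 42 results. Of these 506 kept direction and side of the threshold, or stayed within the spread where there was no test, 39 changed sign, 7 lost the threshold, 8 gained it and 7 moved. Except where values below or in the text above show a cause by construction, the cause was not tested. The 506 include 21 without the filter on low counts in the epigenetic library, which are equal by construction, since every guide passed it. The whole-genome library, with 4 guides a gene and few reads for some of them, gave most changes of sign, all in effects that did not pass.

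Control-guide scaling shifted all guides, so that in MED23 knockout cells growth was 0.1443 for CUL3 and -0.3554 for NFE2L2, vemurafenib over DMSO was -0.0085 for NFE2L2, and vemurafenib over day 0 was 7.96 for CUL3, 1.78 for KEAP1 and -0.4463 for NFE2L2. In MED12 knockout cells with the epigenetic library, growth was then -0.1446 for CUL3. Limma on gene scores gave, for vemurafenib against day 0 in those cells, 0.5938 for CUL3, 1.073 for KEAP1 and 0.4845 for NFE2L2, for growth 0.5077 for NFE2L2, which passed, and for vemurafenib over DMSO at day 14 -0.0232 for NFE2L2. In MED23 knockout cells it gave growth of 1.083 for CUL3 and -0.8669 for KEAP1, and for the difference between knockouts -0.0239 for NFE2L2. In the whole-genome library it gave 0.0494 for CUL3 and -0.0617 for NFE2L2 at day 8, and -0.2275 for KEAP1 between days. A fit of the compared groups alone gave 1.17 for CUL3 growth in MED23 knockout cells. DESeq2 gave 0.0138 for CUL3 in the whole-genome library, vemurafenib against day 0.

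The replicate block gave -0.0536 for NFE2L2 at day 14 in the epigenetic MED12 screen, 0.1485 for CUL3 and -0.3654 for NFE2L2 at day 8 in the whole-genome screen, and -0.0565 for CUL3 and -0.0462 for KEAP1 between days. It changed no member's call. Without the leading guide, KEAP1 in vemurafenib over day 0 was 2.34 and NFE2L2 growth 0.6188 in MED23 knockout cells, and CUL3 in the whole-genome library was -0.1529 at day 14 and -0.0593 between days.

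Leaving out 1 library at a time gave these ranges. In the epigenetic MED12 screen they were -0.1237 to 0.0340 for KEAP1 and -0.1572 to 0.0055 for NFE2L2 at day 8, 0.9572 to 1.506 for KEAP1 growth, and -0.0293 to 0.6078 for CUL3 between days. CUL3 ran 0.1234 to 0.4787 at day 8 and 0.3625 to 0.8705 at day 14, where KEAP1 ran 0.0649 to 0.3793 and NFE2L2 0.0054 to 0.2804, and NFE2L2 growth ran 0.4752 to 1.208. In MED23 knockout cells they were 2.995 to 3.498 for KEAP1 over DMSO, and 8.301 to 8.988 for CUL3 and 0.2081 to 0.3961 for NFE2L2 over day 0. The growth difference ran -0.9571 to -0.7908 for CUL3. In the whole-genome screen, CUL3 ran -0.2669 to 0.4645 at day 8, -0.4824 to 0.7781 at day 14, -0.7366 to 0.2616 in vemurafenib over day 0, -0.8881 to -0.1035 for growth and -0.4667 to 0.7962 between days. NFE2L2 ran -0.4362 to 0.4159, -0.5626 to 0.0701, -2.651 to 0.0052, -0.5497 to 0.1191 and -0.6542 to 0.341 in the same comparisons. KEAP1 ran 0.0219 to 0.5466 at day 8, 0.1928 to 0.7519 at day 14 and -0.2597 to 0.5016 between days.

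List genes past the threshold for growth in the epigenetic MED12 screen numbered 0, against 1 with the replicate block, control-guide scaling, the compared groups alone or no leading guide, 3 with limma, and 0 to 1 without 1 library. With limma they numbered 3 for vemurafenib over day 0 there, 8 for growth in MED23 knockout cells against 4, 6 for the difference between knockouts against 0, and 9 for vemurafenib over day 0 and 8 for growth in the whole-genome library against 0 and 1. In that last comparison they numbered 0 with control-guide scaling or the compared groups alone, and 0 to 1 without 1 library, as for the difference between knockouts. Over all genes limma called 388 against 58 for growth in the epigenetic MED12 screen, 690 against 199 in MED23 knockout cells, 777 against 29 in the whole-genome library and 363 against 46 for the difference between knockouts.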
